A study of Mus musculus with 12 samples.

Results

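The genes described here are 10 members of transforming growth factor beta (TGF-beta) and bone morphogenetic protein (BMP) signalling, measured in primary cultures of mouse trigeminal ganglion (TG) neurons, the sensory neurons of the face. They comprise the TGF-beta ligands Tgfb1, Tgfb2 and Tgfb3, the activin subunit gene Inhba, the ligand Bmp4, the receptors Tgfbr1 and Tgfbr2, the transducer Smad3 and the target genes Id1 and Id3. Members were chosen by name, and the probe set (called a probe here) with the highest mean represented each gene. Each of the 10 had 1 probe, so 10 of 19505 named genes are described. The cells grew on coverslips coated with laminin and received scramble miRNAs (the control), miR-324, miR-34a or miR-21 by transfection, with 3 Clariom S Mouse arrays for each. All 4 groups therefore share the culture and the transfection, and the strain, age, genotype and time after transfection are not given in the sources used here. Whether the 3 arrays of a group stem from different cultures or mice is not stated. The p-values therefore reflect the spread between these arrays alone, and part of that spread may be technical. The log2 signal of Eif2s3y, a Y-linked gene, was 2.27, 2.79 and 8.53 on the miR-34a arrays. On the miR-324 arrays it was 7.88, 2.96 and 5.13, so the arrays of these groups were not all from the same material.

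TGF-beta ligands are secreted in a latent form, held by their own propeptide and by latent TGF-beta binding proteins in the matrix, and act once they are released. The free ligand binds the type II receptor Tgfbr2, which phosphorylates the type I receptor Tgfbr1, and the activated receptor phosphorylates Smad2 and Smad3. BMP ligands act through other receptors on Smad1, Smad5 and Smad9, and Id1 and Id3 are among the best known genes induced by that arm. In peripheral nerve the pathway is known for its roles in Schwann cells, in fibroblasts and matrix deposition, and in the vessel wall.

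The mature sequences of the transfected miRNAs are shown because they define the treatments. They are RefSeq entries with coordinates on GRCm38.p6, written 5′ to 3′, with the seed (bases 2 to 8), the part that pairs with target transcripts, in capitals. The labels do not state the exact sequences transfected, so the commonly used 5p arm is shown for miR-21 and miR-34a and both arms for miR-324.
mmu-miR-21a-5p: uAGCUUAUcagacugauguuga
mmu-miR-34a-5p: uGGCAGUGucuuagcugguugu
mmu-miR-324-5p: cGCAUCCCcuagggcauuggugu
mmu-miR-324-3p: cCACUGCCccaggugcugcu
These 4 seeds differ from one another. Tgfbr2 is a reported target of miR-21, and target sites were not analysed here.

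Values are log2 signals, so a difference of 1 is 2-fold. Arrays are named by group and number, and the third scramble array, whose own label number repeats that of the first, is called scramble 3. Some labels end in a suffix, and the suffixes are called A and B here, which are not their letters in the labels. Suffix A joins scramble 1, scramble 2, miR-34a 1 and miR-34a 2, suffix B joins scramble 3 and miR-324 2, and 6 arrays have no suffix. Only the suffix B labels also hold the word mimic. What the suffix stands for is not stated. Every scramble array has a suffix and no miR-21 array has one. In that comparison, suffix and miRNA cannot be told apart by these arrays alone. Neuronal markers were present on every array, with all 12 listed genes above the 95th percentile of olfactory and vomeronasal receptor probes, but their median ran from 10.17 in miR-34a 3 to 14.59 in miR-34a 1. Endothelial, macrophage, Schwann cell and fibroblast markers were present as well and differed between arrays of 1 group. The pituitary marker Prl (prolactin) was 14.92 on scramble 3 and 14.26 to 15.17 on the miR-324 arrays. On all other arrays it was 3.37 to 4.83, and its part in the comparisons with miR-324 was not tested. In these bulk cultures, fewer cells of a type and less RNA per cell cannot be told apart. Scramble 3, miR-34a 3 and miR-324 1 stood apart from the other arrays of their groups, and results are also given without them.

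None of the 10 genes differed from scramble past the threshold after any miRNA. In limma, fitted to all 12 arrays with a Benjamini-Hochberg adjusted p under 0.05 as the threshold, 0 of 10 passed after miR-21, where 1.04% of all genes did. After miR-34a and after miR-324 the counts were also 0 of 10, with 0% of all genes called in either comparison. At an unadjusted p under 0.05, 2 of 10 passed after miR-21 (Tgfb2 and Tgfb3, both higher), 0 after miR-34a and 1 after miR-324 (Tgfbr2, higher), against 16.6%, 1.46% and 14.7% of all genes. The lowest adjusted p of a member was 0.164, 0.999 and 0.309 in these comparisons. The median difference of the 10 was -0.10 after miR-21, 0.28 after miR-34a and 0.22 after miR-324, beside 0.13, 0.04 and 0.09 for all genes. A test for any difference among the 4 groups (limma's F-test) also called 0 of 10, against 0.603% of all genes, with 2 of 10 at an unadjusted p under 0.05 (Tgfb3 and Tgfbr2), against 15.6%.

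**Figure D1:**
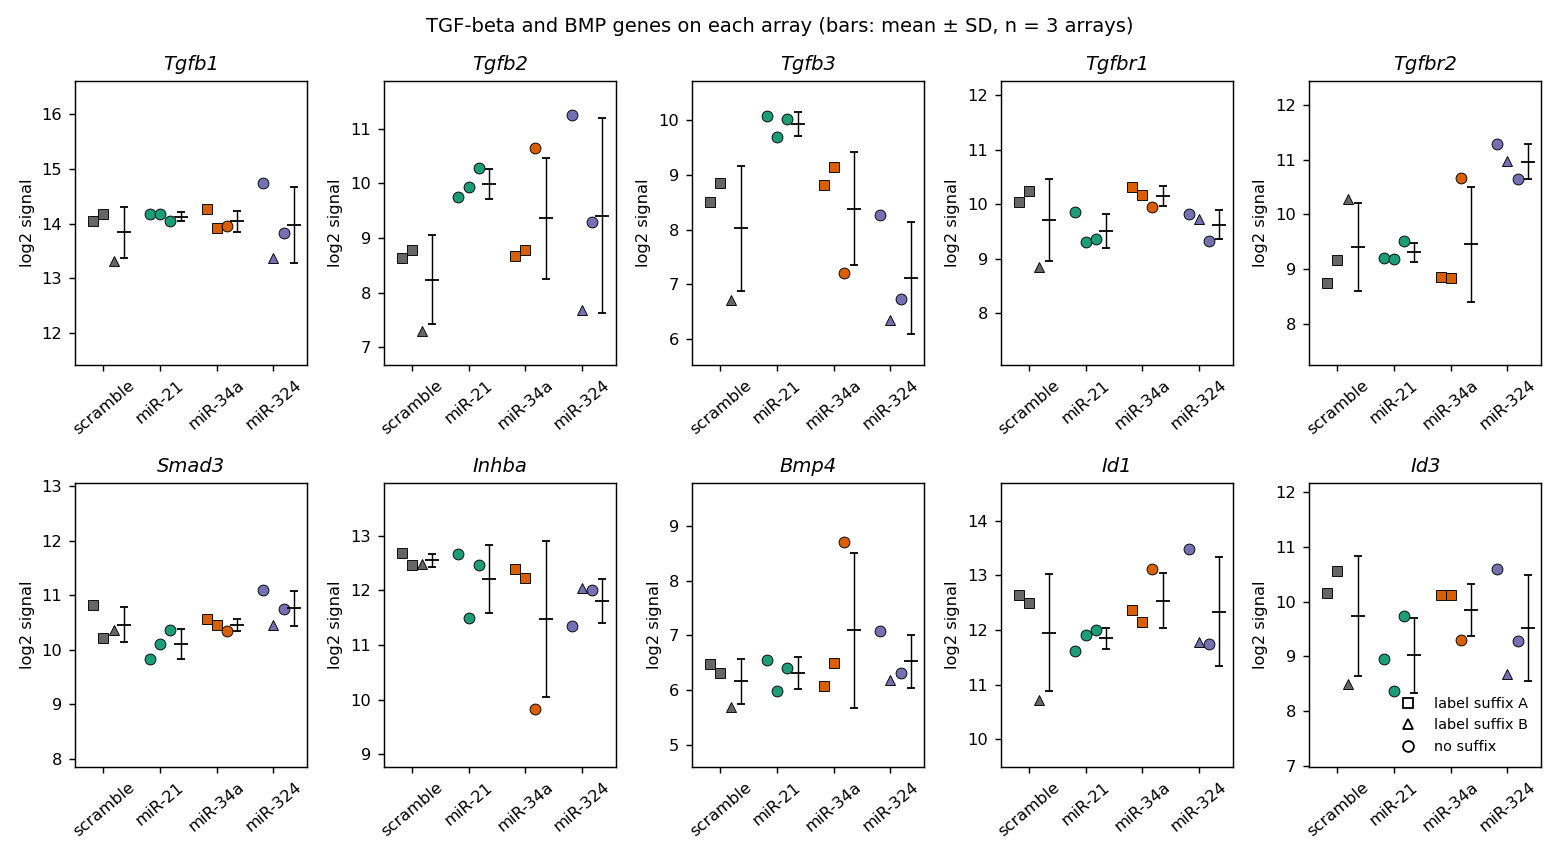
Log2 signal of each of the 10 genes (vertical axes, all spanning the same number of log2 units) on the 12 arrays, by group (horizontal axes); marker shapes give the label suffix and bars the mean ± SD of 3 arrays. Tgfb3 stands at 9.69 to 10.09 on the miR-21 arrays, above the other 9 arrays, and Inhba is lowest at 9.83 on miR-34a 3.

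**Figure D2:**
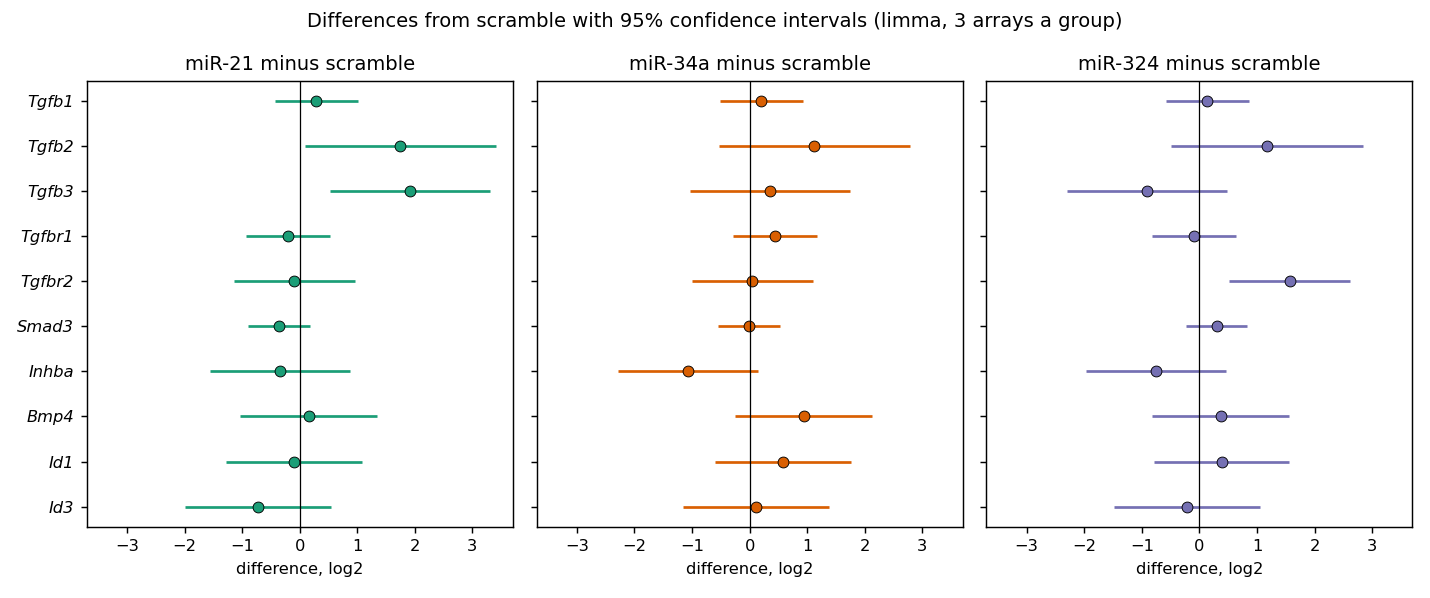
Difference of each gene from scramble on the log2 scale (horizontal axes) after each miRNA, with points for the limma estimate and lines for its 95% confidence interval. The intervals that lie above 0 are those of Tgfb2 and Tgfb3 after miR-21 and Tgfbr2 after miR-324, and none of these passed after adjustment over all genes.

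Tgfb1, the ligand first purified and the most widely expressed, varied little. It stood at 14.04, 14.18 and 13.31 in scramble 1, 2 and 3 and at 14.18, 14.17 and 14.04 in the miR-21 arrays. The miR-34a arrays had 14.27, 13.92 and 13.95, and miR-324 1, 2 and 4 had 14.74, 13.37 and 13.83. All groups overlapped, and the lowest arrays were those of suffix B. The differences from scramble were 0.29 ± 0.33 (SE) after miR-21, 0.20 ± 0.33 after miR-34a and 0.14 ± 0.33 after miR-324. The 95% interval after miR-21 ran from -0.44 to 1.01, so a change of up to about 2-fold upward is within it.

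Tgfb2, a ligand with roles in craniofacial and neural crest development, covered 3.95 log2 units over the 12 arrays against 1.43 for Tgfb1. It was 8.63, 8.78 and 7.30 in scramble and 9.75, 9.93 and 10.28 after miR-21, so that every miR-21 array lay above every scramble array. Of all genes 25.6% also had groups that did not overlap in this comparison, as did 2 of the 10 described here. The difference was 1.75 ± 0.77 (adjusted p = 0.278, 95% interval 0.08 to 3.42). With the suffix as a fixed block it turned to -0.30 (adjusted p = 0.898), and with it as a random block it was 0.85 (adjusted p = 0.77). The miR-34a arrays read 8.67, 8.78 and 10.64 and the miR-324 arrays 11.25, 7.69 and 9.29. Thus miR-34a 3 and miR-324 1 stood above all miR-21 arrays, and the other arrays of their groups below them. The differences from scramble were 1.13 ± 0.77 and 1.17 ± 0.77 (adjusted p = 0.999 and 0.469). Eif2s3y, a Y-linked gene, was high on the same arrays: 7.09 to 7.85 after miR-21, 8.53 on miR-34a 3 and 7.88 on miR-324 1, 5.13 on miR-324 4, and 2.96 or lower on the other 6. Eif2s3y thus separated all miR-21 arrays from all scramble arrays. Its part in the Tgfb2 result, or in any other difference after miR-21, was not tested.

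The upstream sequences of Tgfb1 and Tgfb2 are shown because their spread over the arrays differed. They are the 250 bases before a RefSeq start on GRCm38.p6, Tgfb1 at chr7:25686752-25687001 on the plus strand and Tgfb2 at chr1:186705990-186706239 on the minus strand, written 5′ to 3′ along the gene. Capitals mark TATAAA (the TATA box), GGGCGG (the GC box) and CAGAC (a core bound by SMAD proteins), each sought on both strands.
Tgfb1: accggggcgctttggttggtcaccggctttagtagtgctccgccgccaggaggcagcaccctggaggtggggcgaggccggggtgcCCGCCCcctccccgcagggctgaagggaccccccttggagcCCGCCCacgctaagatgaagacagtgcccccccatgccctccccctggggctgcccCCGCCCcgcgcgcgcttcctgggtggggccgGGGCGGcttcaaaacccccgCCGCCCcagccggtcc
Tgfb2: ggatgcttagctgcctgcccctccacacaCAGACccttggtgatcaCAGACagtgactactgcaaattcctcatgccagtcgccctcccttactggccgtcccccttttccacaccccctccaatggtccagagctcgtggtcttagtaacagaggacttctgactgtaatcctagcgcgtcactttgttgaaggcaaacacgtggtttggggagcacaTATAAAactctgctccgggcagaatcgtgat
The Tgfb1 stretch holds 5 GC boxes, no TATAAA and no CAGAC, and its GC content is 75.2%. The Tgfb2 stretch holds 1 TATAAA, beginning 31 bases before the start, 2 CAGAC and no GC box, at a GC content of 53.6%. Over 32851 RefSeq stretches of the same length, 12.4% hold TATAAA, 32.7% GGGCGG and 42.2% CAGAC, and the median GC content is 52.4%. The table had such a stretch for 8 of the 10 genes. These matches are a description of the letters and not of bound factors.

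Tgfb3, a ligand known for its role in closure of the palate, was highest after miR-21. It stood at 10.09, 9.69 and 10.02 there, against 8.50, 8.86 and 6.71 in scramble. The miR-34a arrays read 8.81, 9.14 and 7.20, and the miR-324 arrays 8.27, 6.34 and 6.74. Every miR-21 array was above each of the other 9 arrays. The group levels in descending order were 9.93 ± 0.21 for miR-21, 8.38 ± 1.04 for miR-34a, 8.02 ± 1.15 for scramble and 7.12 ± 1.02 for miR-324 (SD, n = 3), and the last 3 overlapped. From scramble the difference was 1.91 ± 0.64 after miR-21 (adjusted p = 0.164), 0.36 ± 0.64 after miR-34a (adjusted p = 0.999) and -0.91 ± 0.64 after miR-324 (adjusted p = 0.499). With the suffix fitted as a fixed block the miR-21 difference was 2.60 ± 0.51 and passed (adjusted p = 0.0106, against 3.49% of all genes called), while that after miR-324 was 0.06 ± 0.44. The miR-21 difference did not pass with the suffix as a random block (2.21, adjusted p = 0.179) or with the label number as a replicate block (2.20, adjusted p = 0.298). The fixed block treats all arrays without a suffix as 1 level, and the miR-21 arrays have none.

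Between miRNAs Tgfb3 was the only member past the threshold. It was 2.82 ± 0.64 lower after miR-324 than after miR-21 (adjusted p = 0.0405), a 7.04-fold difference, with 1 of 10 members called against 2.46% of all genes (1.31% lower and 1.14% higher). The fixed suffix block called 2 of 10 members here, against 6.92% of all genes. The call held in 1 of 6 fits that each left out 1 array, that without miR-324 1 (adjusted p = 0.0264). It was lost without any miR-21 array, without miR-324 2 or without miR-324 4 (adjusted p up to 0.155), while the difference stayed between -3.39 and -2.43. With the label number as a replicate block it was -2.90 (adjusted p = 0.178). The comparison of miR-34a with miR-21 called 0 of 10 (0.158% of all genes), and that of miR-324 with miR-34a 0 of 10 (0% of all genes). At an unadjusted p under 0.05 these held 1 member (Tgfb3, 1.55 ± 0.64 lower after miR-34a) and 1 member (Tgfbr2, 1.52 ± 0.48 higher after miR-324), against 11.3% and 13% of all genes. Groups did not overlap for 3 of 10 members between miR-34a and miR-21 and for 1 of 10 between miR-324 and miR-34a, against 17% and 17.1% of all genes.

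Fibroblast and cell cycle markers moved with Tgfb3 in part, but the fibroblast median was not highest on the miR-21 arrays. The median of the 10 measured fibroblast markers of 12 listed was 10.13 and 10.28 in scramble 1 and 2, 9.07 to 9.99 after miR-21 and 10.40 and 10.42 in miR-34a 1 and 2. It was 7.55 in scramble 3, 7.19 in miR-34a 3 and 7.58 to 8.60 after miR-324. The log2 of their summed linear signals gave another order, with 15.72 to 17.25 in scramble, 15.55 to 16.12 after miR-21, 14.53 to 16.14 after miR-34a and 14.56 to 16.94 after miR-324. Dpt and Pi16 were not above the level of the olfactory receptor probes on any array. Members of the fibroblast list went different ways. Col1a1 and Col1a2 were highest on the miR-21 arrays, as Tgfb3 was, at 11.53 to 13.20 and 15.10 to 15.45. Dcn was 12.77 to 13.69 there and 17.02 in scramble 3. Cd34 was 9.41 to 10.07 there, and 13.27 to 13.84 on scramble 3, miR-34a 3 and the miR-324 arrays. The 11 cell cycle genes measured had medians of 8.46 to 9.46 on the 7 arrays with the higher fibroblast medians and 6.11 to 6.80 on the other 5. Tgfb3 stood at 8.50 to 10.09 on the former and 6.34 to 8.27 on the latter. The part of either list in the Tgfb3 result was not tested.

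**Figure D3:**
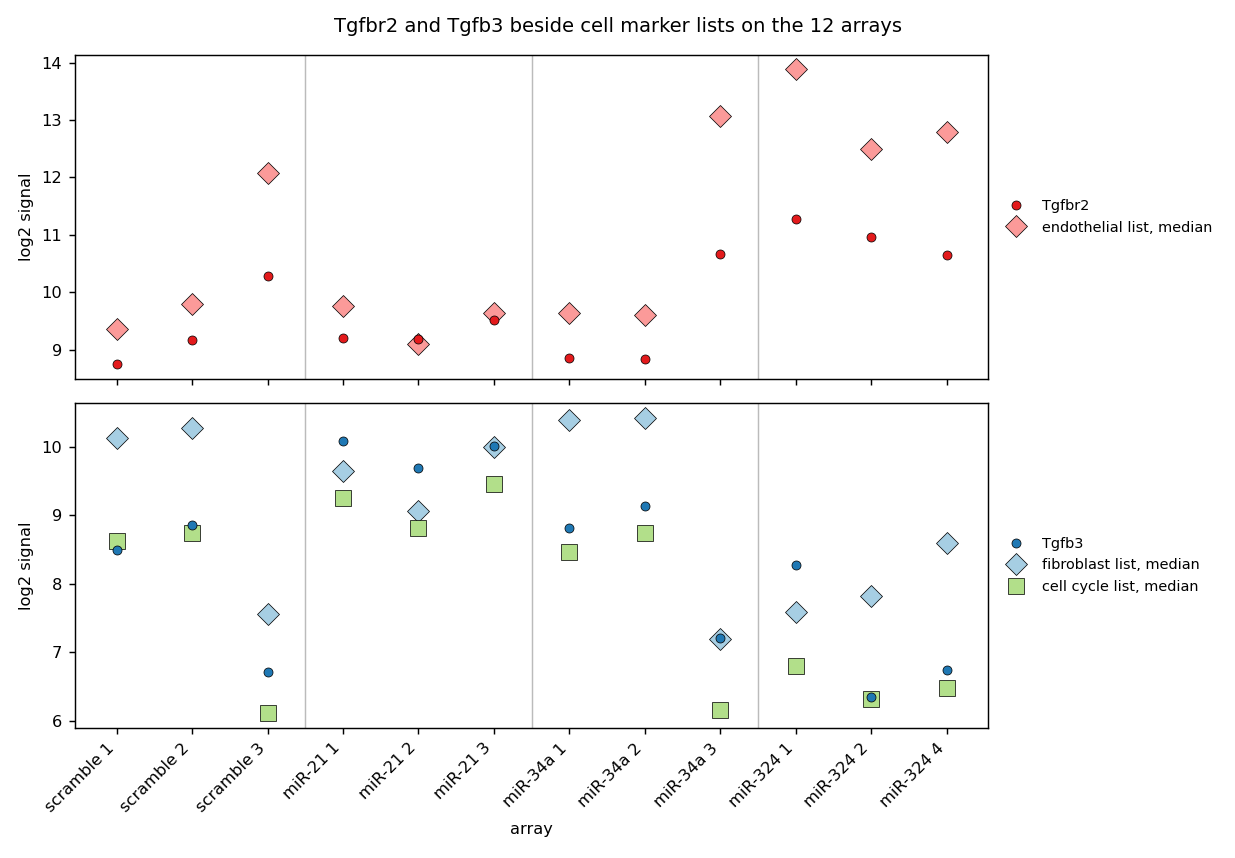
Log2 signal (vertical axes) of Tgfbr2 with the median of the endothelial marker list (top) and of Tgfb3 with the medians of the fibroblast and cell cycle lists (bottom) on each of the 12 arrays (horizontal axis), with grey lines between groups. Tgfbr2 is at 10.29 to 11.28 on the 5 arrays with endothelial medians of 12.08 to 13.88, and at 8.74 to 9.51 on the other 7.

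Inhba encodes the beta A subunit shared by activin A and inhibin A, and activin signals through SMAD2 and SMAD3 as TGF-beta does. It was 12.69, 12.47 and 12.49 in scramble and 12.66, 11.49 and 12.47 after miR-21. The miR-34a arrays read 12.39, 12.22 and 9.83, all below scramble, and the miR-324 arrays 11.34, 12.05 and 12.01, also all below scramble. Groups failed to overlap for 1 of 10 members after miR-34a (5.8% of all genes) and 2 of 10 after miR-324 (19.9% of all genes). The differences were -1.07 ± 0.56 (adjusted p = 0.999) and -0.75 ± 0.56 (adjusted p = 0.522). Without miR-34a 3 the former was -0.245.

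Bmp4, a ligand of the BMP arm with roles in cranial placode and ganglion development, was the dimmest of the 10 genes, with a mean of 6.52. On every array it was above the 95th percentile of the olfactory and vomeronasal receptor probes. It was 6.48, 6.31 and 5.69 in scramble, 6.56, 5.98 and 6.40 after miR-21 and 7.08, 6.19 and 6.31 after miR-324. The miR-34a arrays read 6.07, 6.50 and 8.72, and miR-34a 3 alone stood above the rest. The difference after miR-34a was 0.94 ± 0.55 (adjusted p = 0.999) with that array and 0.125 without it. After miR-21 and miR-324 it was 0.15 ± 0.55 and 0.37 ± 0.55 (adjusted p = 0.911 and 0.766).

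Tgfbr1, the type I receptor kinase, varied little between groups. It read 10.04, 10.24 and 8.85 in scramble, 9.86, 9.31 and 9.36 after miR-21, 10.32, 10.17 and 9.95 after miR-34a and 9.82, 9.73 and 9.32 after miR-324. Scramble 3 was the lowest of the 12. The differences were -0.20, 0.44 and -0.09, each ± 0.34 (adjusted p = 0.792, 0.999 and 0.917).

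Tgfbr2, the type II receptor that binds the ligand first, had the largest difference after miR-324. It was 11.28, 10.97 and 10.65 on those arrays, against 8.74, 9.17 and 10.29 in scramble, with no overlap. The difference was 1.57 ± 0.48, a 2.96-fold higher level (limma adjusted p = 0.309). The miR-21 arrays read 9.21, 9.19 and 9.51 and the miR-34a arrays 8.85, 8.84 and 10.66, and neither group differed from scramble past the threshold (-0.10 ± 0.48 and 0.05 ± 0.48, adjusted p = 0.938 and 0.999). The interval after miR-21, the miRNA for which Tgfbr2 is a reported target, ran from -1.15 to 0.95. Within suffix B, miR-324 2 stood 0.68 above scramble 3, and with the suffix as a fixed block the difference after miR-324 was 0.46 ± 0.31 (adjusted p = 0.976).

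Endothelial markers moved with Tgfbr2 over the arrays. The median of the 10 measured of 11 listed was 12.50 to 13.88 after miR-324, 12.08 in scramble 3 and 13.07 in miR-34a 3. It was 9.36 and 9.80 in scramble 1 and 2, 9.10 to 9.76 after miR-21 and 9.64 and 9.60 in miR-34a 1 and 2. The log2 of their summed linear signals kept this split, at 16.63 to 18.36 against 14.00 to 14.63. At most 1 of the 10 was at the level of the olfactory receptor probes on any array. The part of endothelial RNA in the Tgfbr2 difference was not tested.

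Smad3, which carries the TGF-beta and activin signal to the nucleus, had the smallest range of the 10, 1.26. It stood at 10.82, 10.21 and 10.36 in scramble, 9.83, 10.11 and 10.37 after miR-21, 10.57, 10.45 and 10.34 after miR-34a and 11.09, 10.45 and 10.74 after miR-324. All groups overlapped with scramble. The differences were -0.36, -0.01 and 0.30, each ± 0.25 (adjusted p = 0.485, 0.999 and 0.569), and the intervals reached no further than -0.90 and 0.83. Between miR-324 and miR-21 the arrays did not overlap, at a difference of 0.66 ± 0.25 (adjusted p = 0.227), as for 21.4% of all genes.

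Id1 and Id3 encode helix-loop-helix proteins without a DNA-binding region, which hold basic helix-loop-helix factors inactive. Id1 read 12.64, 12.50 and 10.71 in scramble, 11.62, 11.91 and 12.00 after miR-21, 12.36, 12.14 and 13.11 after miR-34a and 13.48, 11.78 and 11.74 after miR-324. Id3 read 10.16, 10.56 and 8.50 in scramble, 8.95, 8.36 and 9.74 after miR-21, 10.13, 10.12 and 9.29 after miR-34a and 10.59, 8.68 and 9.28 after miR-324. Both were lower by 1.86 in scramble 3 than in the mean of scramble 1 and 2, and all groups overlapped with scramble. The differences of Id1 were -0.11, 0.59 and 0.38, each ± 0.54 (adjusted p = 0.939, 0.999 and 0.752). Those of Id3 were -0.72, 0.11 and -0.22, each ± 0.58 (adjusted p = 0.556, 0.999 and 0.873).

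The 250 bases before the RefSeq start of Id3 (chr4:136143572-136143821, plus strand, GRCm38.p6) are shown as those of a BMP target gene, with capitals as above.
Id3: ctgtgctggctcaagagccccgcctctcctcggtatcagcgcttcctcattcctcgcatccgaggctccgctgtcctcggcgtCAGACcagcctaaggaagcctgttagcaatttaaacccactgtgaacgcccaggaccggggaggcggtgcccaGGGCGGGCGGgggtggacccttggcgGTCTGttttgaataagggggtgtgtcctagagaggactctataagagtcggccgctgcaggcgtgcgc
The stretch holds 2 CAGAC, 1 on each strand, 2 overlapping GC boxes and no TATAAA. No factor binding was measured in this study.

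Scramble 3, miR-34a 3 and miR-324 1 differed from the other arrays of their own groups by more than the arrays that share a suffix differed between groups. This does not extend to all arrays of a group without a shared suffix: the median difference of the 10 genes was 0.36 between miR-324 2 and miR-324 4 and 0.325 to 0.345 between pairs of miR-21 arrays. Between miR-34a 1 and 2 and scramble 1 and 2, all of suffix A, the differences of the 10 genes lay between -0.32 (Id1) and 0.30 (Tgfb3), with 0 of 10 over 1 in size and an adjusted p of 0.997 for each in limma on these 4 arrays. The median size was 0.11, against 0.16 for all genes. Between miR-324 2 and scramble 3, 1 array each and so with no test, they lay between -0.44 (Inhba) and 1.07 (Id1). There 1 of 10 was over 1 in size, against 4.97% of all genes, 8 of 10 were higher in miR-324 2, and the median size was 0.415, against 0.30 for all genes. Scramble 3 differed from the mean of scramble 1 and 2 by over 1 in 6 of 10 genes, against 12.4% of all genes. For miR-34a 3 against miR-34a 1 and 2 it was 5 of 10 (18.4% of all genes) and for miR-324 1 against miR-324 2 and 4 also 5 of 10 (11.8% of all genes). Scramble 3 was lower in 9 of 10, with Tgfbr2 the exception (1.33 higher), and miR-324 1 was higher in 9 of 10, with Inhba the exception. For these directions, and for that of miR-324 2 against scramble 3, shares of all genes were not counted.

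**Figure D4:**
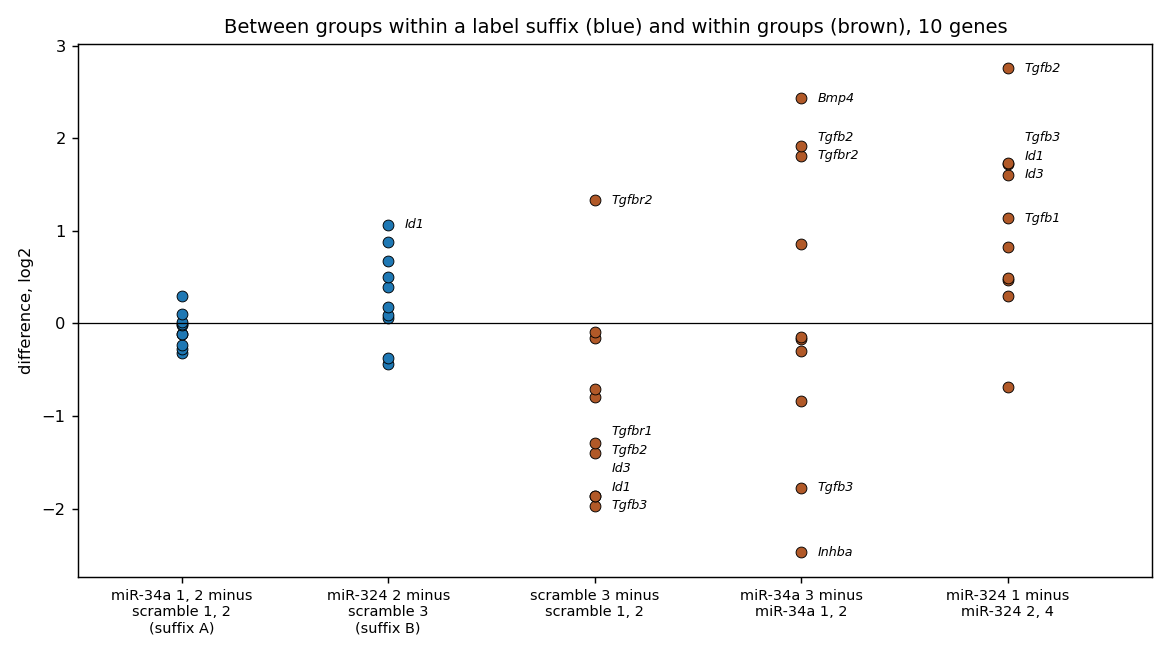
Differences on the log2 scale (vertical axis) for the 10 genes between groups within a label suffix (blue) and between arrays of 1 group (brown); genes over 1 in size are named. The suffix A differences lie between -0.32 and 0.30, and the within-group differences reach -2.47 (Inhba, miR-34a 3) and 2.76 (Tgfb2, miR-324 1).

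Without scramble 3, miR-34a 3 and miR-324 1, a choice made after the values were seen, members passed the threshold. After miR-21 3 of 10 did, against 13% of all genes: Tgfb2 and Tgfb3 were higher (1.28 ± 0.37 and 1.25 ± 0.25, adjusted p = 0.0413 and 0.00543) and Id3 lower (-1.34 ± 0.35, adjusted p = 0.0253). After miR-324 4 of 10 did, against 13.2% of all genes: Tgfbr2 was higher (1.85 ± 0.26, adjusted p = 0.000532), and Tgfb3, Id1 and Id3 lower (-2.14, -0.81 and -1.38, adjusted p = 0.00027, 0.0468 and 0.0345). After miR-34a 0 of 10 did, against 0% of all genes. Leaving out arrays because they stand apart narrows the spread within groups, so the p-values of this selection overstate the evidence. In this selection both scramble arrays have suffix A and the miR-21 and miR-324 arrays have not, so suffix and miRNA cannot be told apart there. For miR-21 against scramble this also holds with all arrays kept, as the 2 groups share no suffix.

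Of 113 further genes of the pathway listed by role, 109 were measured. After miR-21, 4 of 109 rose and 0 fell, where 0.685% of all genes rose. The median difference of the 109 was 0.31, beside 0.13 for all genes. After miR-34a and miR-324, 0 of 109 passed in limma, with 1 and 22 at an unadjusted p under 0.05, where 1.46% and 14.7% of all genes did, and the medians were 0.15 and 0.22. Between miR-324 and miR-21, 0 of 109 rose and 11 fell, where 1.14% of all genes rose and 1.31% fell. The 11 were 7 extracellular regulators, 3 TGF-beta targets and 1 receptor, Bmpr1a, a type I receptor for BMPs, which was 1.10 ± 0.26 lower after miR-324 (adjusted p = 0.0475). Ltbp2, Nog, Itgb8 and Col1a2 were among them. Between miR-34a and miR-21, 0 rose and 1 fell, where 0.0869% of all genes rose and 0.0715% fell. That gene was Nog, 1.69 ± 0.27 lower after miR-34a (adjusted p = 0.0346). The list was chosen with earlier results of these data known, and its counts are no independent evidence.

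Extracellular regulators held 3 of the 4 rises after miR-21, with 20 of 23 measured not past the threshold. Ltbp2, a matrix protein of the latent TGF-beta binding family, stood at 9.52, 9.20 and 8.72 after miR-21 and 6.42, 6.50 and 4.89 in scramble, and rose by 3.21 ± 0.48 (adjusted p = 0.0145). On the other arrays it was between 5.93 and 7.68. Nog, the secreted BMP antagonist noggin, read 8.10, 8.02 and 8.11 against 6.80, 6.90 and 6.13 and rose by 1.47 ± 0.27 (adjusted p = 0.028). Itgb8, the integrin subunit that with Itgav releases TGF-beta from its latent complex, read 13.33, 13.44 and 13.81 against 11.38, 11.76 and 9.39 and rose by 2.68 ± 0.57 (adjusted p = 0.0493). All 3 genes were highest on the miR-21 arrays, with Itgb8 on miR-34a 3 next at 13.26. When 1 array was left out, Ltbp2 failed without miR-21 1 or 2 (adjusted p up to 0.0825), Nog passed only without scramble 2, and Itgb8 passed in no fit (adjusted p = 0.051 to 0.153). Itgb8 also failed with the suffix as a fixed block (1.98, adjusted p = 0.173) or a random block (2.37, adjusted p = 0.144), where Ltbp2 and Nog passed. Scramble and miR-21 share no suffix, so the fixed block compares them only by way of the miR-34a and miR-324 arrays. Passing in it therefore does not separate suffix from miRNA. With the label number as a replicate block none of the 3 passed (adjusted p = 0.111 for Ltbp2, 0.143 for Nog and 0.212 for Itgb8). The median of the Schwann cell markers was also highest on the miR-21 arrays. For 8 measured of 10 listed it was 12.80 to 13.14 there, against 7.74 to 9.96 in scramble, 9.28 to 11.46 after miR-34a and 8.33 to 10.10 after miR-324. The log2 of the summed marker signals was 17.14 to 17.52, 15.20 to 16.74, 16.54 to 16.74 and 14.96 to 15.44 in the same order. Single markers differed: Mal and Ncmap were highest on miR-34a 3 (13.76 and 6.84). Pmp22 was 16.52 to 16.93 on the miR-21 arrays, with scramble 2 at 16.56 and miR-34a 1 at 16.59. Of the 8, at most 3 were at the level of the olfactory receptor probes on an array, and 1 on each miR-21 array. The part of these cells in the rises was not tested.

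Among 16 measured TGF-beta target genes 1 rose after miR-21 and 0 fell, where 0.685% of all genes rose and 0.358% fell. Col1a2, a chain of type I collagen, was 15.45, 15.10 and 15.38 against 12.56, 11.63 and 8.40 in scramble, a rise of 4.45 ± 0.83 (adjusted p = 0.0291), and it passed only without scramble 1 or scramble 3 when 1 array was left out and not with the replicate block (adjusted p = 0.158). Postn, the matrix protein periostin, was 3.31 ± 0.86 higher without passing (adjusted p = 0.0865). Tgfbi, a matrix protein named for its induction by TGF-beta, was -2.69 ± 0.86 different (adjusted p = 0.149). The median difference of the 16 was 0.77 after miR-21, 0.32 after miR-34a and -0.63 after miR-324. Col1a1, Col1a2 and Col3a1 are also in the fibroblast marker list, and the targets Acta2 and Tagln in a list of mural (vessel wall) markers. The log2 of the summed mural signals was 17.33 to 17.36 on the miR-21 arrays and 10.76 to 16.55 on the others. Mural medians were 6.02 to 7.06 and 5.71 to 6.935. The part of these cells in the target differences was not tested.

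Against scramble, the other roles had no gene past the threshold in limma. SMADs other than Smad3 had medians of 0.22, 0.15 and 0.29 after miR-21, miR-34a and miR-324. Smad1, a transducer of the BMP arm, was -1.12 ± 0.31 different after miR-21 (adjusted p = 0.0981), and Smad7, the inhibitory SMAD induced by the pathway, 2.03 ± 0.79 (adjusted p = 0.226). Of 12 further receptors 10 were higher in the mean after miR-324, with a median of 0.46. Of all 19572 genes 11424 were also higher there, with a median of 0.09. Acvr1, with the lowest unadjusted p of these receptors, was 0.71 ± 0.23 higher after miR-324 (adjusted p = 0.309). Eng, an endothelial co-receptor, was 18.39, 15.36 and 17.00 there against 14.62, 15.10 and 14.61 in scramble (2.14 ± 0.74, adjusted p = 0.309). The endothelial median was 12.08 on scramble 3, where Eng was 14.61. Of 15 intracellular regulators Ski, a repressor of SMAD-driven transcription, was 1.60 ± 0.38 higher after miR-21 (adjusted p = 0.0649) and 1.23 ± 0.38 after miR-324 (adjusted p = 0.309). The 10 BMP targets had medians of 0.29, 0.26 and -0.23, and the 26 ligands of 0.20, -0.04 and 0.30.

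**Figure D5:**
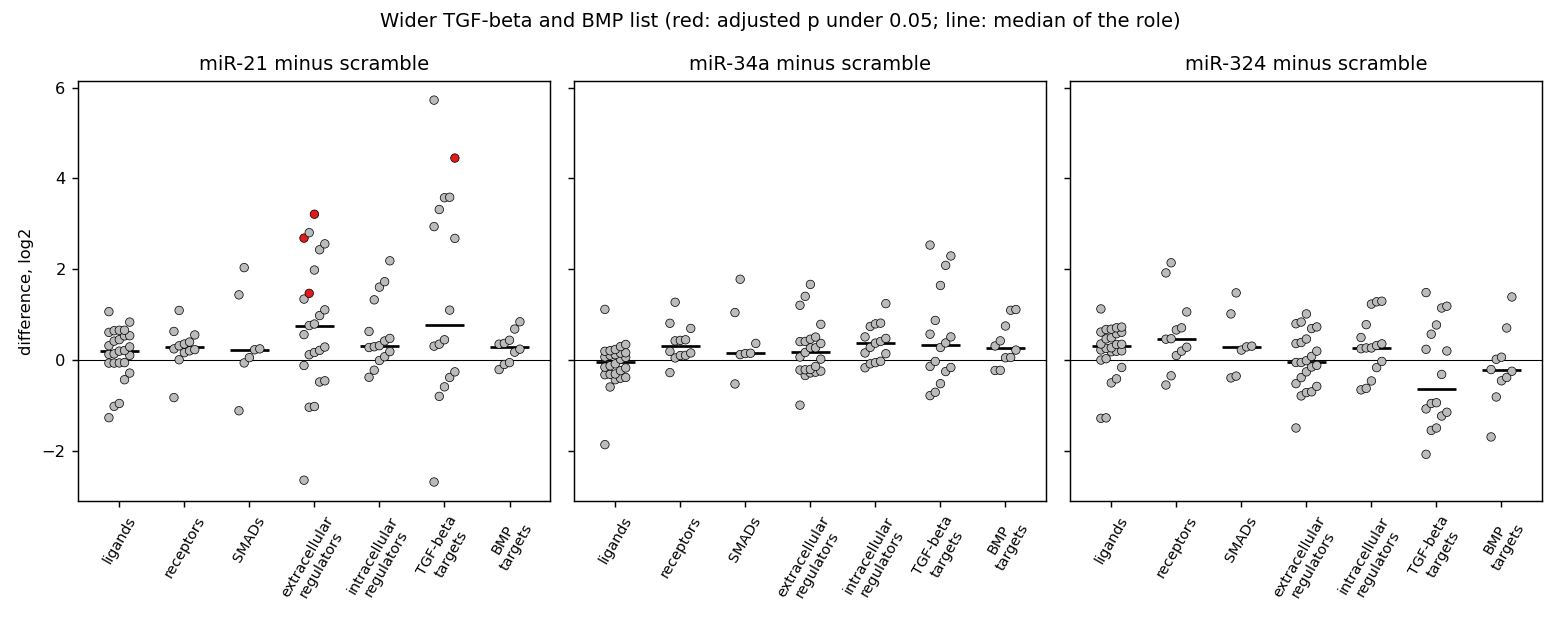
Difference from scramble on the log2 scale (vertical axis) of each of 109 further pathway genes after each miRNA, by role (horizontal axes); red points have an adjusted p under 0.05 and black lines are the medians of a role. The 4 red points, Ltbp2, Nog, Itgb8 and Col1a2, are all after miR-21 and above 0.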

How the data were processed

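Transcript levels were measured on 12 Clariom S Mouse arrays. The deposited values are log2 signals that the authors made with Transcriptome Analysis Console 4.0 and RMA, per the submitters' processing notes. RMA removes changes in total signal and compresses differences near the floor. The table has 22206 probes, of which a platform table named 19572 with 1 symbol, 0 with several and 2634 with none. Array data have no read depth, and the number of arrays limits the precision. Medians of the arrays lay between 5.91 and 6.06, and 0 pairs of arrays were identical.

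Group means were fitted with limma 3.58.1 in R 4.3.3 (8 residual degrees of freedom) with contrasts against scramble and between miRNAs. Tests were two-sided and adjusted over the 19572 named probes. Errors are SE of the fit for differences and SD for levels. The script was tested on simulated data.

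All 10 members were named. Wider pathway genes past the threshold against scramble were named by role, and otherwise up to 2 of the lowest unadjusted p. Postn, Tgfbi and the genes named between miRNAs were added after their values were seen. Members and lists were chosen with earlier results of these data known. Alternatives covered normalization, dim probes, the variance prior, arrays in the fit, blocks, the call rule and leaving out arrays.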

Additional observations from a re-analysis of the deposited data

Results flagged for a closer look

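Tgfb3 was flagged because its differences from scramble after 2 miRNAs differed from each other. It was 1.91 above scramble after miR-21 and -0.91 after miR-324, and the contrast of miR-324 with miR-21 was -2.82 (limma adjusted p = 0.0405). All 3 miR-324 arrays were below all 3 miR-21 arrays, as for 21.4% of all genes in either direction. Groups of 3 arrays are too small for a test of single outlying arrays.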

How the results depend on the processing

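Every count below is from limma. The 0 members called against scramble stayed 0 after miR-34a under every alternative run. After miR-21 it became 1 with only the groups compared (Tgfb2, adjusted p = 0.0394), 1 with the suffix as a fixed block, 2 at an unadjusted p under 0.05 with a 2-fold difference and 3 without the 3 arrays that stand apart, where 4.63%, 3.49%, 7.25% and 13% of all genes were called. After miR-324 it became 1 (5.86%) and 4 (13.2%) under the last pair of settings. All genes called after miR-21 (204) were 906, 684, 1419 and 2553 under the 4 settings named for miR-21, 2 with the label number as a replicate block and 34 with the suffix as a random block. The wider list (4) was 17, 8, 24 and 27 under those 4 settings and 0 with the replicate block. With the unadjusted rule 32 and 1146 of all genes and 1 and 13 of the wider list were called after miR-34a and miR-324, and without the 3 arrays 2587 and 27 after miR-324. Between miR-324 and miR-21 the count of 1 of 10 members was 2 with only the groups compared (5.33% of all genes), 2 with the fixed and 2 with the random suffix block (6.92% and 4.1%), 2 with the unadjusted rule (7.15%), 3 without the 3 arrays (12.2%) and 0 with the replicate block (0.118%). Between miR-34a and miR-21 it was 4 with the fixed block (5.13%), 1 with the unadjusted rule (3.72%) and 2 without the 3 arrays (11.9%). Between miR-324 and miR-34a it was 1 (4.44%) and 2 (11.3%) under the latter pair. For any difference among the 4 groups it was 2 (4.65%), 2 (7.91%) and 4 (20% of all genes) with the fixed block, the unadjusted rule and without the 3 arrays. The cause of these shifts was not tested.

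Leaving out 1 array gave 11 to 81 of all genes after miR-21 (11, 19 and 33 without miR-21 1, 2 and 3, and 60, 81 and 78 without scramble 1, 2 and 3) and 0 to 2 of the wider list. After miR-324 it gave 0 to 383 of all genes and 0 to 3 of the wider list, the highest without scramble 3. Members called numbered 0 to 1 between miR-324 and miR-21, 0 to 1 between miR-324 and miR-34a and 0 to 2 among the 4 groups, the latter pair highest without miR-34a 3 (4.09% and 8.15% of all genes).

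Uncalled differences changed sign as follows. Quantile normalization again gave -0.0354 for Tgfbr2 after miR-34a. The replicate block gave 0.0337 for Inhba and -0.25 for Bmp4 after miR-21, -0.27 for Tgfbr2 after miR-34a and 0.0546 for Tgfbr1 after miR-324. The fixed suffix block gave, after miR-21, -0.30 for Tgfb2, 0.18 for Tgfbr1, 1.21 for Inhba and -1.35 for Bmp4. It gave, after miR-34a, -0.0728 for Tgfb1, -0.0022 for Tgfbr2 and -0.29 for Id3, and, after miR-324, 0.0611 for Tgfb3, 0.37 for Tgfbr1, 0.45 for Inhba, -0.67 for Bmp4 and 0.28 for Id3. The random suffix block gave 0.34 for Inhba and -0.51 for Bmp4 after miR-21, -0.0661 for Id3 after miR-34a, and 0.11 for Tgfbr1 and -0.0897 for Bmp4 after miR-324. The suffix A arrays alone, and equally the fit without the 3 arrays, gave -0.015 for Tgfb1, -0.11 for Tgfbr2 and Bmp4, -0.32 for Id1 and -0.235 for Id3 after miR-34a. Without the 3 arrays Tgfbr2 was 0.35 and Bmp4 -0.0817 after miR-21, and Tgfb1 -0.51, Tgfb2 -0.215, Bmp4 -0.145 and Id1 -0.81 after miR-324, of which Id1 passed. Leaving out 1 array moved signs over these ranges. After miR-21 they were -0.63 to 0.065 for Tgfbr1, -0.43 to 0.35 for Tgfbr2, -0.57 to 0.015 for Inhba, -0.0817 to 0.32 for Bmp4 and -0.73 to 0.24 for Id1. After miR-34a they were -0.0633 to 0.37 for Tgfb1, -0.30 to 0.95 for Tgfb3, -0.555 to 0.495 for Tgfbr2, -0.14 to 0.17 for Smad3, -0.0333 to 0.93 for Id1 and -0.51 to 0.52 for Id3. After miR-324 they were -0.24 to 0.44 for Tgfb1, -0.52 to 0.18 for Tgfbr1, -0.24 to 0.73 for Id1 and -0.84 to 0.195 for Id3.

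Same-numbered arrays of different groups did not deviate together as a set. The correlations of their deviations from group means, across genes, ran from -0.41 to 0.36 over 16 pairs, with 3 over 0.1. An array that stands apart moves the mean of its 3 arrays, so this check cannot decide whether the numbers pair the arrays. Over the 5 pairs that share a suffix the correlations ran from 0.0086 to 0.36, with 4 over 0.1: the 4 suffix A pairs lay at 0.31 to 0.36, and the suffix B pair was the lowest. No member has a further probe, so that alternative was not run. Values near the floor understate differences, and Bmp4, though above the level of the receptor probes, was the dimmest member.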

Other observations

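Further pathway genes separated arrays rather than groups, and those named here were chosen after their values were seen. Bmp2, a BMP ligand, stood at 9.05 in scramble 3 and 9.38 in miR-324 2, the suffix B arrays, at 6.58 in miR-324 4, and between 4.09 and 5.71 on the other 9 arrays. The median of 7 measured pituitary markers was 7.38, 6.72 and 7.41 on those 3 arrays, but also 6.16 in miR-324 1, where Bmp2 was 4.79, and 3.67 to 4.24 on the other 8.

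Ccn2, a matrix-associated protein induced by TGF-beta, was 10.13 and 10.79 on the suffix B arrays and 14.67 to 17.25 on the other 10. Id2, the relative of Id1 and Id3, was 10.93 and 11.18 on the suffix B arrays, 11.79 in miR-324 4 and 13.54 to 14.59 on the other 9. Smad6, an inhibitory SMAD of the BMP arm, was 7.86 and 8.54 on the suffix B arrays, 12.69 in miR-34a 3 and 12.47 in miR-324 1, and 10.00 to 11.29 on the other 8. Acvrl1, a type I receptor of endothelial cells, was 11.32, 12.24 and 10.62 in miR-34a 3, miR-324 1 and miR-324 4, and 8.32 to 9.29 on the other 9.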
